A study of Mus musculus with 4 samples.

Results

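Reelin signalling and neuronal migration were followed through 10 genes in 4 regions of the embryonic mouse brain. The genes encode the ligand (Reln), its receptors (Vldlr, Lrp8) and their adaptor (Dab1), the dynein regulators Pafah1b1 and Ndel1, the microtubule protein Dcx, the kinase activator Cdk5r1, and the chemokine Cxcl12 with its receptor Cxcr4. They were chosen by name, and all 10 were found among the 19938 genes that had a probe set with a single gene symbol, each with 1 probe set. RNA was taken at embryonic day 17.5 from the olfactory bulb, from the superior colliculus, which is the visual roof of the midbrain, from the cerebellum, and from the pontine nucleus, the hindbrain nucleus that feeds the cerebellum. All embryos belonged to the outbred ICR stock, and the labels name no allele, transgene or treatment in any group. Each pool went onto 1 Affymetrix array, and the pools held 13 (cerebellum), 14 (bulb), 15 (pontine nucleus) or 16 mice (superior colliculus). There were no replicates, so no value has an SD or a p-value, the spread between animals is hidden within the pools, and the number of arrays limits the precision.

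Reelin is a large secreted glycoprotein that tells migrating neurons where to stop. It binds the lipoprotein receptors Vldlr and Lrp8 (also called ApoER2), which bring about phosphorylation of the adaptor Dab1 inside the cell. Loss of Reelin, of Dab1, or of both receptors together disturbs the layers of the cerebral cortex and leaves Purkinje cells of the cerebellum misplaced. Movement of the nucleus behind the leading process depends on dynein and its regulators Lis1 (Pafah1b1) and Ndel1, on microtubules bound by doublecortin (Dcx), and on the kinase Cdk5, which p35 (Cdk5r1) activates. Cxcl12, released from the meninges, attracts cells that carry Cxcr4, and in the cerebellum this pair holds granule cell precursors at the surface.

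Levels are log2 signals, so a difference of 1 is 2-fold. Array medians lay between 8.07 and 8.13. Comparisons were limited to the 10908 genes that exceeded 8.56, the median gene level, on some array (the level floor). A region was called higher for a gene if its array exceeded each of the other 3 by 1 log2 unit or more, and lower if it fell short of each of them by as much. A background set of 203 genes for vomeronasal receptors and beta defensins had a 95th percentile level of 7.33, and 95% of their differences between any 2 arrays were at most 0.40. None of them lay above the level floor, so that spread describes weak probe sets. Marker genes were set beside the regional labels. Their lists were chosen with earlier results of these data known, so their calls are no independent check. The size rule called 5 of 7 Purkinje cell markers higher in the cerebellum, all 5 mitral and tufted cell markers and all 6 interneuron markers higher in the olfactory bulb, all 5 hindbrain and pontine markers higher in the pontine nucleus, and all 6 tectal markers higher in the superior colliculus. None of these lists went against the label of an array. Of 7 granule lineage markers, however, only 2 were called higher in the cerebellum, and 4 were highest in the pontine nucleus.

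Of the 10 genes, 9 lay above the level floor, and Cxcl12 lay below it. Cxcr4 was the only one of the 9 to pass the rule for a single region, as higher in the cerebellum, where 0.605% of all compared genes were called higher. None of the 9 was called lower in the cerebellum, beside 0.156% of all compared genes. None passed in the olfactory bulb, where 0.972% were higher and 0.431% lower, in the pontine nucleus, with 0.798% and 0.981%, or in the superior colliculus, with 0.715% and 0.165%. The range over the 4 arrays, highest minus lowest level, was at least 1 log2 unit for Cxcr4, Reln and Dab1, which is 3 of 9, beside 15.0% of all compared genes. The other 6 ranged from 0.17 for Pafah1b1 to 0.58 for Lrp8. The median range of all compared genes was 0.39, and 6 of the 9 lay above it.

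**Figure D1:**
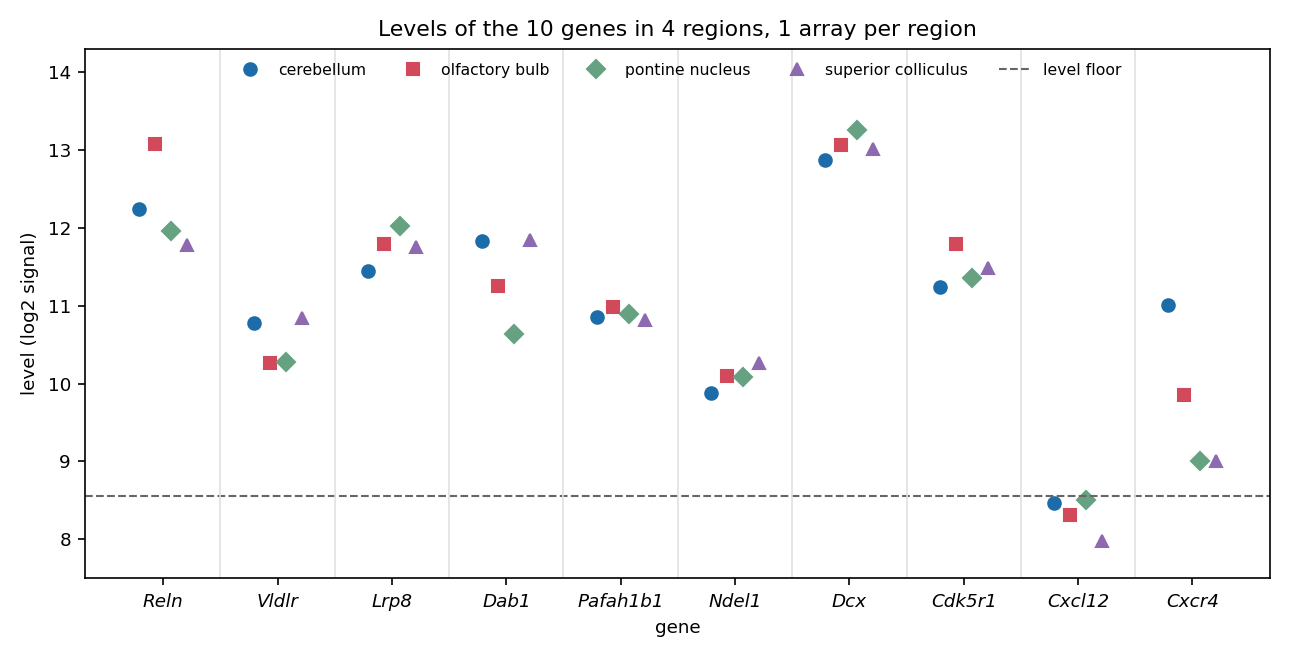
Level (log2 signal, vertical axis) of each of the 10 genes (horizontal axis) on the array of each region, with 1 symbol per array and the level floor of 8.56 as a dashed line. Cxcr4 spans 9.00 to 11.01, Reln 11.78 to 13.08 and Dab1 10.64 to 11.84, while the symbols of Pafah1b1 nearly coincide and those of Cxcl12 lie under the floor. Signals of different genes come from different probes and are not compared with each other.

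**Figure D2:**
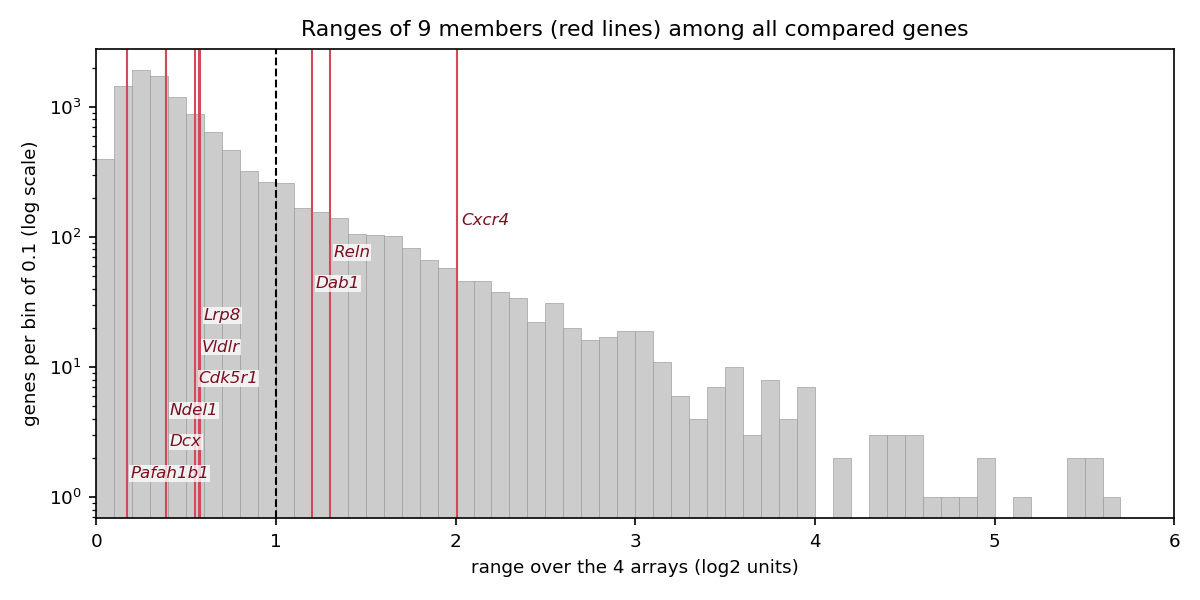
Number of genes (vertical axis, log scale) by range over the 4 arrays (horizontal axis, log2 units, bins of 0.1) for all 10908 compared genes, with the 9 compared members as labelled red lines and the size of 1 log2 unit as a dashed line. Cxcr4, Reln and Dab1 lie to the right of the dashed line and the other 6 to the left.

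The sequences before the start sites of the 3 genes that varied most are shown because these genes differ in their order over the regions. They are the 250 bases upstream of each RefSeq start on assembly GRCm38.p6, 5′ to 3′ on the strand of the gene. The promoter table held 9 of the 10 genes, all but Cdk5r1, and 2 starts for Dab1. The probe set of Dab1 does not tell these starts apart. Capitals mark matches, on either strand, to GGGCGG (GC box), CANNTG (E-box), AGGTGTGA (an element of T-box factors) and CGCATGCG (the core of the element of the factor NRF1). The Reln window is chr5:22344706-22344955 on the minus strand, the upstream start of Dab1 is preceded by chr4:103619250-103619499 and its downstream start by chr4:104367288-104367537, both on the plus strand, and the Cxcr4 window is chr1:128592300-128592549 on the minus strand.
Reln: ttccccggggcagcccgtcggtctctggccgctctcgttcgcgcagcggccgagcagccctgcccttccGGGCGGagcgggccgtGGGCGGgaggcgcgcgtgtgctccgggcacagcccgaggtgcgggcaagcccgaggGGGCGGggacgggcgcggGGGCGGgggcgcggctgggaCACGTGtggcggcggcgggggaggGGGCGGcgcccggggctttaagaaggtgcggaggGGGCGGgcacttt
Dab1, upstream start: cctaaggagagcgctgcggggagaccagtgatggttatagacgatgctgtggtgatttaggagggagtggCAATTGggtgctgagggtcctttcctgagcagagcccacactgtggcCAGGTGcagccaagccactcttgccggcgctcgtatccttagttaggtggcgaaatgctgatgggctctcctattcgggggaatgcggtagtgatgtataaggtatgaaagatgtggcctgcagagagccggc
Dab1, downstream start: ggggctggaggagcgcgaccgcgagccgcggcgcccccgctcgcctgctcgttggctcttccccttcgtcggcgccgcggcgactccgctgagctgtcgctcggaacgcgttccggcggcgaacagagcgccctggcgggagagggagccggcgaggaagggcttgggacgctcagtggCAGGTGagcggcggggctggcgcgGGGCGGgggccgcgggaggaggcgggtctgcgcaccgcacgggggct
Cxcr4: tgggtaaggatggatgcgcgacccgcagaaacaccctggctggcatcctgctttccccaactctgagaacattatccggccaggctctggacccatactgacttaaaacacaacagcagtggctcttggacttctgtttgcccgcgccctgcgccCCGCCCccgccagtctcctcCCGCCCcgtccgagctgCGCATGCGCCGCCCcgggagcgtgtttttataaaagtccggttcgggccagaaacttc

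The Reln window held 6 GC boxes and 1 E-box, and 37 CpG dinucleotides, more than 97.8% of the 32851 windows in the table, whose median count was 6. The downstream Dab1 start had 40 CpGs, 1 GC box and 1 E-box, and the upstream start 10 CpGs, 2 E-boxes and no GC box. The Cxcr4 window held 3 GC boxes and the NRF1 core, directly next to the last of those boxes, and 19 CpGs. A GC box was found in 32.7% of all windows, an E-box in 66.2%, the T-box letters in 1.12% and the NRF1 letters in 1.55%. The T-box letters were not in any of the 4 windows. A match describes the letters and is no evidence of binding, and the arrays did not measure the promoters.

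Reln, the ligand, was highest in the olfactory bulb. It read 12.24 in the cerebellum, 13.08 in the bulb and 11.96 in the pontine nucleus, with 11.78 in the superior colliculus (probe set 10528385). The bulb thus stood 0.84 above the cerebellum, 1.12 above the pontine nucleus (2.17-fold) and 1.30 above the superior colliculus (2.46-fold). The last 2 differences reached the size of 1 log2 unit, beside 7.76% of compared genes that differed by as much, in either direction, between the bulb and the pontine nucleus and 5.67% between the bulb and the superior colliculus. The lower 3 regions lay within 0.46 of each other. The pontine nucleus and the superior colliculus differed by 0.18, less than the spread of the background genes, which are weak probe sets. Against the mean of the other 3 arrays Reln was 1.09 higher in the bulb, so it would be called there with that comparator. In a dissected region, fewer cells of a type and less RNA per cell cannot be told apart.

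Reelin is made by Cajal-Retzius cells at the cortical surface, by mitral cells of the olfactory bulb and by granule cells of the cerebellum, so markers of these cells are given beside it. All 5 mitral and tufted cell markers were highest in the bulb, and the log2 of their summed signal was 11.57 in the cerebellum, 14.48 in the bulb and 9.92 in the pontine nucleus, with 10.01 in the superior colliculus. Tbr1, a T-box factor of projection neurons, read 12.22 in the bulb against at most 7.98 elsewhere. The markers Slc17a7, Cdhr1 and Tbx21 were higher in the bulb by 3.71, 3.27 and 2.21. All 6 interneuron markers of the bulb were highest there too, led by Dlx1 at 12.89 against at most 7.84. Their summed signal was 11.15, 14.32, 11.45 and 11.17 in the same order of regions.

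The granule lineage markers did not follow Reln. Their summed signal was nearly equal in the pontine nucleus (14.88) and the cerebellum (14.89), and lower in the bulb (13.59) and the superior colliculus (13.72). Zic1 and Zic2 were the strongest of them in the pontine nucleus, at 13.36 and 13.26, so the sum does not mark granule cells alone. Of 6 genes listed for Cajal-Retzius cells, Trp73, the defining one, stayed below the level floor on all 4 arrays, at 7.78, 8.26, 7.64 and 7.64. Of the 5 others, 4 were highest in the cerebellum, among them Ebf2, called higher there by 1.28, and Calb2 was highest in the bulb at 12.27. The summed signal of all 6 was 12.90, 12.98, 11.16 and 12.39. Calb2 was the strongest of them in the bulb, and Ndnf (11.13) and Ebf2 (11.08) in the cerebellum. With Trp73 under the floor, this sum is not a measure of Cajal-Retzius cells. The part of these cell types in the Reln levels was not tested.

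The receptors varied less than their ligand, and their order over the regions differed. Vldlr (probe set 10462281) read 10.78 in the cerebellum, 10.27 in the bulb and 10.28 in the pontine nucleus, with 10.84 in the superior colliculus. It was about equal in the cerebellum and the superior colliculus, which differed by 0.06, and lower by 0.50 to 0.57 in the other pair, which differed by 0.01. Lrp8 (probe set 10506714) read 11.44, 11.79, 12.02 and 11.75 in the same order of regions. It was lowest in the cerebellum and highest in the pontine nucleus, 0.58 apart, and the bulb and the superior colliculus differed by 0.04. Relative to each gene's own mean over the arrays, Vldlr lay above Lrp8 by 0.55 in the cerebellum and 0.30 in the superior colliculus, and the difference was -0.31 in the bulb and -0.53 in the pontine nucleus. Neither receptor reached 1 log2 unit in any of the 6 pairs of regions.

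Dab1, the adaptor that binds the tails of both receptors, was low in the pontine nucleus. It read 11.83 in the cerebellum, 11.26 in the bulb and 10.64 in the pontine nucleus, with 11.84 in the superior colliculus (probe set 10506433). The cerebellum and the superior colliculus were 0.01 apart and were the 2 highest regions, as they were for Vldlr. The pontine nucleus lay 0.62 below the bulb, 1.19 below the cerebellum (2.28-fold) and 1.20 below the superior colliculus (2.30-fold). The last 2 passed the size of 1, as did 6.37% of compared genes for the pontine nucleus against the cerebellum and 5.84% against the superior colliculus. Against the mean of the other arrays the pontine level was lower, at -1.0, which passes the size with that comparator but not against the lowest other array.

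Purkinje cells depend on Dab1 to reach their layer, and all 7 of their markers were highest in the cerebellum. Their summed signal was 14.15 in the cerebellum, 11.80 in the bulb and 11.64 in the pontine nucleus, with 12.81 in the superior colliculus. Of the 7 markers, 4 were lowest in the pontine nucleus, as Dab1 was, and 3 in the bulb. Each of these lowest levels lay under the level floor, and Pcp2, 1 of the 4, was lowest by 0.01 only. Car8, Calb1 and Lhx1 were called higher in the cerebellum by 3.02, 2.17 and 1.08. All 3 were lowest in the bulb, where Calb1 and Lhx1 were also called lower, by 1.77 and 1.99. Foxp2, a forkhead factor of Purkinje cells and of other neurons, read 12.09, 10.74, 7.77 and 11.61, so its lower 2 regions were those of Dab1. Markers of postmitotic neurons were not low in the pontine nucleus, where 6 of 7 exceeded the mean of the rest. The summed signal of those markers was 15.01, 14.97, 15.18 and 15.03. Only Nefm, higher in the cerebellum by 1.48, passed the rule, beside 4.58% of all compared genes. The part of Purkinje cells in the Dab1 levels was not tested.

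**Figure D3:**
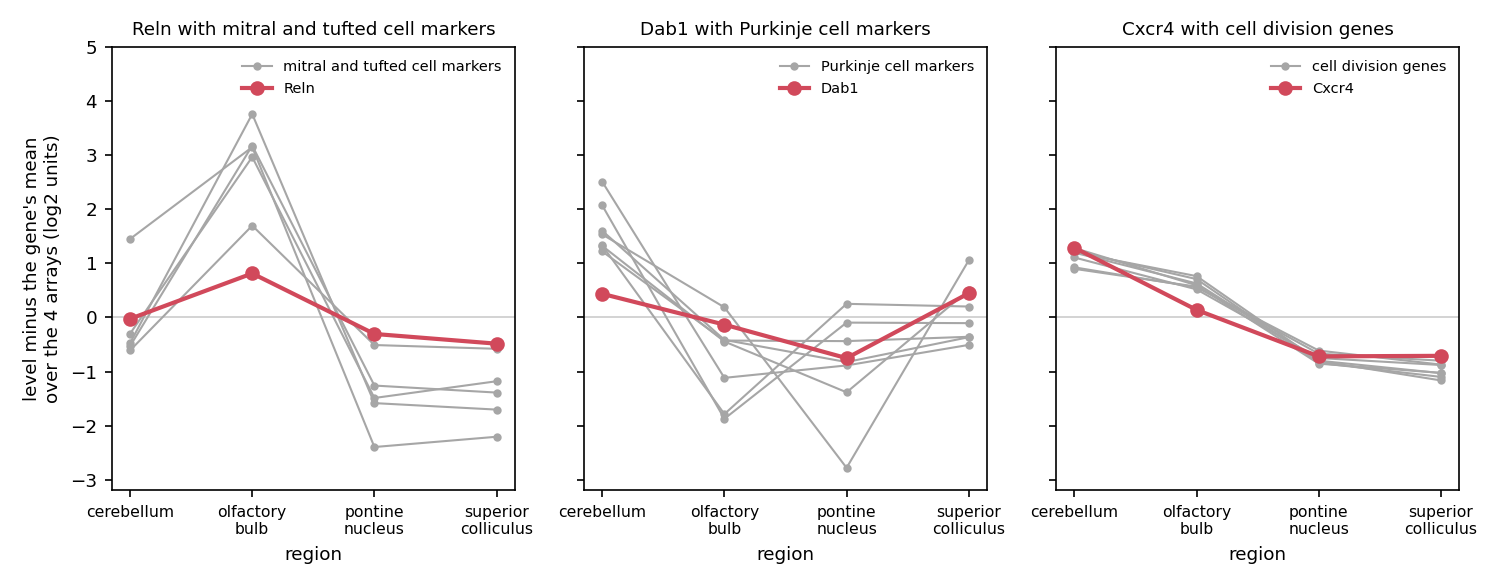
Level minus the gene's own mean over the 4 arrays (vertical axis, log2 units) by region (horizontal axis) for Reln with 5 mitral and tufted cell markers, Dab1 with 7 Purkinje cell markers and Cxcr4 with 7 cell division genes. Red lines are the members and grey lines the markers, with 1 point per array. Reln peaks in the same region as the mitral and tufted markers with a smaller amplitude, Dab1 is as high in the superior colliculus as in the cerebellum where the Purkinje markers peak, and Cxcr4 is level with the highest cell division genes in the cerebellum and below them in the bulb.

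The genes of the dynein machinery were nearly level. Pafah1b1 (probe set 10388337), the Lis1 protein that holds dynein on microtubules under load, read 10.85 in the cerebellum, 10.99 in the bulb and 10.90 in the pontine nucleus, with 10.82 in the superior colliculus. Its range of 0.17 lay within the spread of the background genes, which are weak probe sets, and 11.1% of compared genes had a smaller range. Ndel1 (probe set 10387180), which links Lis1 to dynein, read 9.88, 10.10, 10.09 and 10.27, with the bulb and the pontine nucleus 0.01 apart. Its range of 0.39 equals the median of all compared genes.

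Among 17 other genes of the Lis1 and dynein complex, 15 ranged by less than 1 log2 unit, while 15.0% of all compared genes reached it. The median range was 0.24, beside 0.39. Dync1i1, a neuronal intermediate chain of dynein, was called higher in the olfactory bulb. It was the only one of the 17 to pass the rule in any region, beside 4.58% of all compared genes. It read 8.56 in the cerebellum, 11.18 in the bulb and 8.04 in the pontine nucleus, with 9.14 in the superior colliculus. Its relative Dync1i2 read 11.69, 11.77, 11.88 and 11.76. Nde1, the paralog of Ndel1 that works mainly in dividing progenitors, read 9.60 in the cerebellum, 9.46 in the bulb and 8.36 in the pontine nucleus, with 8.31 in the superior colliculus. It was high in the first 2 regions and fell under the level floor in the other 2, unlike Ndel1, which was lowest in the cerebellum. Dync1i2 and Nde1 were picked for description after their values were seen.

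Dcx, the microtubule-associated protein of young migrating neurons, gave a strong signal in every region. It read 12.87 in the cerebellum, 13.07 in the bulb and 13.26 in the pontine nucleus, with 13.01 in the superior colliculus (probe set 10607156). The pontine nucleus was highest and the cerebellum lowest, 0.39 apart, and no pair differed by more than the 0.40 of the background genes. That spread comes from weak probe sets and may not hold for a signal this strong. Of the 4 regions, Dcx and Lrp8 had the same order, and of all pairs among the 9 compared members they had the smallest Euclidean distance between mean-centred levels, 0.15 over 4 arrays. In the pontine nucleus all 15 other genes of the doublecortin family and neuronal microtubules exceeded the mean of the other 3 arrays, beside 49.4% of all compared genes. Their median difference there was 0.18, against -0.0033 for all compared genes. None of the 15 passed the rule in any region, beside 4.58% of all compared genes. The median difference in that region was 0.28 for the 7 markers of postmitotic neurons and -1.07 for the 7 genes of cell division, none of which is on the microtubule list, and their part in the shift was not tested. The widest differences from the mean of the others were those of Map6, at 11.02, 10.79, 11.60 and 11.36, and of the beta-tubulin gene Tubb2a, at 12.23, 12.58, 12.65 and 12.81.

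Cdk5r1, the p35 activator of Cdk5, was highest in the olfactory bulb. It read 11.24 in the cerebellum, 11.79 in the bulb and 11.36 in the pontine nucleus, with 11.48 in the superior colliculus (probe set 10379482). The bulb stood 0.31 above the superior colliculus and 0.55 above the cerebellum, and the other 3 regions lay within 0.24 of each other. Among 6 other measured genes, which are Cdk5 and its partners, none passed the rule, beside 4.58% of all compared genes. Of the 6, 4 were lowest in the cerebellum, which was the lowest array for 30.9% of all compared genes. Cdk5 itself read 11.04, 11.43, 11.31 and 11.49, and Cdk5r2, the p39 activator, read 10.81, 10.93, 10.89 and 11.41. The widest differences were those of Cdk5rap2, a centrosomal protein, at 9.70, 9.31, 9.81 and 9.04, and of Cables2, at 8.73, 8.82, 9.48 and 9.52. Lrp8, Ndel1 and Dcx were lowest in the cerebellum as well as Cdk5r1, which makes 4 of the 9 compared members.

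Cxcr4, the chemokine receptor, varied most of the 10 genes. It read 11.01 in the cerebellum, 9.86 in the bulb and 9.00 in the pontine nucleus, with 9.01 in the superior colliculus (probe set 10357472). The cerebellum stood alone at the top, the bulb lay between, and the last 2 regions were 0.01 apart. The cerebellum was 1.15 above the bulb (2.22-fold), 2.01 above the pontine nucleus (4.03-fold) and 2.0 above the superior colliculus. All 3 differences passed the size of 1, beside 4.52% of compared genes for the first of these pairs, 6.37% for the second and 5.71% for the third. Of all compared genes 96.5% had a smaller range. The lowest Cxcr4 level lay above the level floor, so the gene was compared whichever region is considered.

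Genes of cell division had nearly the same order over the regions as Cxcr4. All 7 measured were highest in the cerebellum, also higher in the bulb than the average of the rest, and lowest in the superior colliculus, with summed signals of 13.58, 13.07, 11.67 and 11.44. Top2a, a topoisomerase of dividing cells, read 10.83, 10.31, 8.76 and 8.50, and the spindle checkpoint kinase gene Bub1 read 10.30, 9.61, 8.16 and 7.99. The step from the cerebellum to the bulb was 1.15 for Cxcr4, 0.52 for Top2a and 0.69 for Bub1. Of 6 radial glia genes, 4 were highest in the cerebellum and 2 in the bulb, with summed signals of 15.29, 15.08, 14.85 and 14.86. None of the 6 passed the rule, beside 4.58% of all compared genes. The largest differences among them were those of Sox2, at 10.87, 11.18, 9.88 and 10.64, and of Slc1a3, at 12.58, 12.33, 11.58 and 11.38.

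Markers of the granule lineage, whose precursors carry Cxcr4 in the cerebellum, followed that gene in part. Atoh1, the transcription factor of the precursors, read 10.70 in the cerebellum, 6.92 in the bulb and 7.70 in the pontine nucleus, with 7.20 in the superior colliculus. Mfap4 read 11.75, 9.75, 8.20 and 8.47. Of the 7 genes of that list 4 were highest in the pontine nucleus, where Cxcr4 was lowest, among them Barhl1, at 12.50 against 11.25 in the cerebellum. With such levels outside the cerebellum, these 4 genes do not mark granule cells alone. Neurod1 was called lower in the pontine nucleus, at 6.85. Blood vessel and immune cells can also carry Cxcr4. None of the 5 endothelial genes above the floor was highest in the cerebellum, the summed signal of all 7 lay between 12.01 and 12.17, and Flt1 and Kdr spanned 8.90 to 9.32 and 8.84 to 9.10. Of 6 microglial genes only Cx3cr1 and Csf1r lay above the floor, at 9.09 to 9.41 and 8.54 to 8.89, and the summed signal of the 6 lay between 10.80 and 11.09. The part of dividing cells, granule cell precursors, blood vessel cells and immune cells in the Cxcr4 levels was not tested.

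Cxcl12, the ligand of Cxcr4, was weak on all arrays. It read 8.47 in the cerebellum, 8.31 in the bulb and 8.51 in the pontine nucleus, with 7.98 in the superior colliculus (probe set 10541075). Each of these lay above the 95th percentile of the background genes, 7.33, and below the level floor, the highest by 0.05. The first 3 regions lay within 0.20 of each other, and the superior colliculus was lowest, 0.53 under the pontine nucleus. At this signal a fold difference may be understated. The pontine nucleus ranked highest for the ligand and lowest for the receptor, but only by 0.04 and 0.01, within the spread of the background genes. The 2 orders were therefore not compared.

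Meninges and blood vessels are known sources of Cxcl12, and their markers are given beside it. Of 8 meningeal and fibroblast genes, 4 lay above the floor, all highest in the olfactory bulb, and the summed signal of the 8 was 10.76, 11.80, 10.61 and 10.83. The proteoglycan gene Dcn was called higher in the bulb, at 10.59 against at most 8.65. Of the other 4 genes, Foxc1 reached at most 7.44 and Lum at most 6.04. None of the 5 pericyte genes passed the rule, beside 4.58% of all compared genes, and their summed signals lay between 11.40 and 11.65. The widest differences were those of Pdgfrb, at 9.58, 9.63, 9.07 and 9.76, and Rgs5, lowest in the cerebellum at 9.48 and 0.52 above that in the bulb, where it was highest. The part of these cells in the Cxcl12 levels was not tested.

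Other genes on the chemokine side included Ackr3, the scavenger receptor for Cxcl12, which lay below the floor at 7.68, 7.75, 8.33 and 7.36. Of 7 genes of the list above the floor, none passed the rule, beside 4.58% of all compared genes. Gnai1, a subunit of the inhibitory G proteins that Cxcr4 couples to, read 10.52 in the cerebellum, 11.85 in the bulb and 10.86 in the pontine nucleus, with 11.56 in the superior colliculus. It had the widest difference from the mean of the others, followed by the receptor kinase gene Grk3, at 9.41, 8.65, 9.05 and 9.38. Gnai1 was lowest in the cerebellum, the region where Cxcr4 was highest. Grk3 was about equal in the cerebellum and the superior colliculus, which differed by 0.03.

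The genes that carry the Reelin signal inside the cell mostly ranged by less than 1 log2 unit, as did compared genes in general. Of 24 genes of intracellular signalling, none passed the rule in any region, beside 4.58% of all compared genes. In range, 22 were under 1 log2 unit, while 15.0% of all compared genes reached it. The median range was 0.34, beside 0.39. Fyn and Src, the kinases that phosphorylate Dab1, read 11.67, 12.12, 11.98 and 11.79, and 10.64, 10.92, 10.68 and 10.84. Itga3, an integrin chain, had the widest difference, at 9.30 in the cerebellum, 8.46 in the bulb and 9.76 in the pontine nucleus, with 9.50 in the superior colliculus. Nectin3, an adhesion molecule, followed at 10.69, 10.32, 9.66 and 10.15, lowest in the same region as Dab1. Of 6 genes listed for Reelin processing and the ligand side, none passed and 2 ranged by at least 1 log2 unit. These counts stand beside the same shares of all compared genes. The median range of the 6 was 0.66, above the 0.39 of all compared genes. Clu, a ligand of both receptors, was highest in the superior colliculus, at 10.22 against at most 9.38, and Thbs1, another receptor ligand, lowest in the pontine nucleus, at 8.12 against at least 8.56. Adamts3, a protease that cuts Reelin, read 10.04, 10.05, 9.51 and 9.73.

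Of 23 other genes of neuronal migration above the level floor, 11 ranged by at least 1 log2 unit, beside 15.0% of all compared genes, and the median range was 0.93, beside 0.39. The rule called 2 of them lower in the pontine nucleus, beside 0.981% of all compared genes, and 1 lower in the superior colliculus, beside 0.165%. Rnd3, a small GTPase that loosens the actin cytoskeleton in migrating neurons, read 10.64 in the cerebellum, 10.99 in the bulb and 8.04 in the pontine nucleus, with 10.77 in the superior colliculus. Prokr2, a receptor for the attractant prokineticin, read 9.72, 10.44, 8.62 and 10.01. Syne2, which ties the nucleus to the cytoskeleton, read 9.80, 9.80, 9.91 and 8.74, and of its 4 probe sets 2 passed the rule, with gaps of 0.57 to 1.06 below the lowest other array. Over all 7 lists, 4 of 98 genes above the floor passed the rule in some region, beside 4.58% of all compared genes, and 18 ranged by at least 1 log2 unit, beside 15.0%. Both counts over the lists are near those shares.

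**Figure D4:**
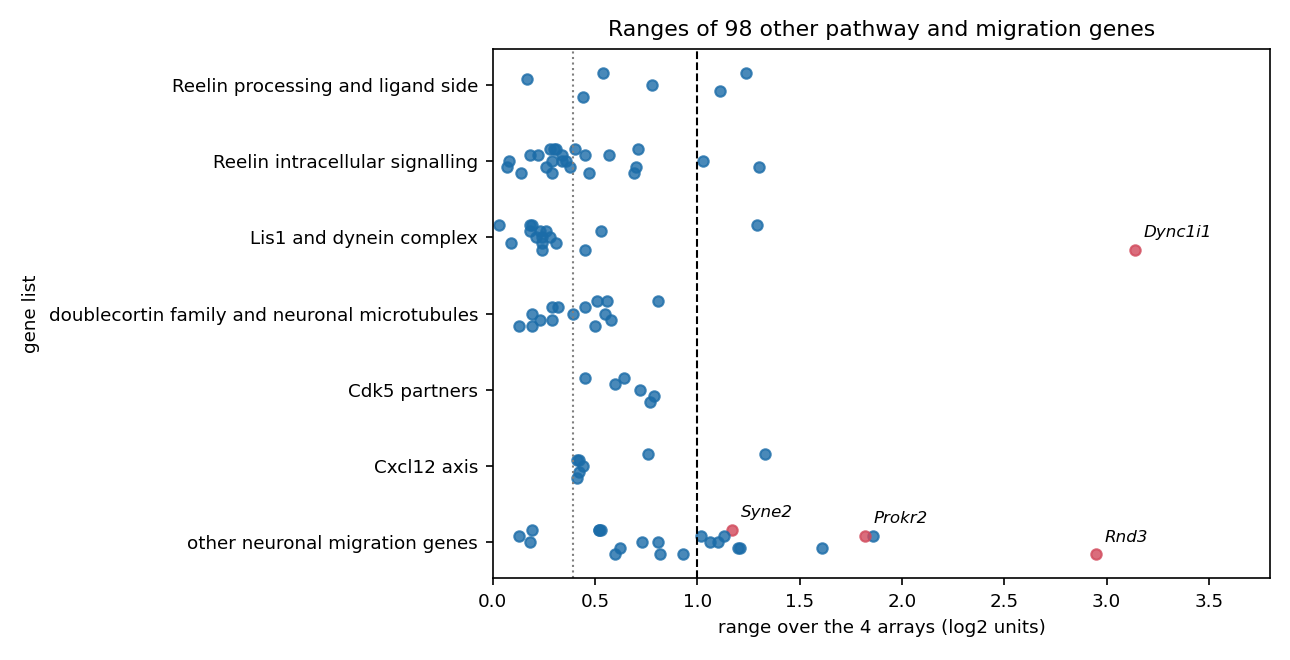
Range over the 4 arrays (horizontal axis, log2 units) of each of 98 other pathway and migration genes above the level floor, by list (vertical axis, points offset for visibility). Red points passed the rule for a single region and are named, blue points did not, the dashed line is 1 log2 unit and the dotted line the median range of all compared genes, 0.39. Genes of the microtubule and Cdk5 lists all lie to the left of 1, and Dync1i1 at 3.14 and Rnd3 at 2.95 lie farthest to the right.

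For the 3 members that ranged by at least 1 log2 unit, the genes with the closest pattern were found by the Euclidean distance between mean-centred levels over the 4 arrays. A distance over 4 points leaves many genes alike, and it is given as a description. For Reln the closest were S100a16 at 0.13, with levels of 9.57, 10.30, 9.29 and 9.18, then Lrrc9 at 0.15 and Lima1 at 0.16. For Dab1 they were Dkk3 at 0.09, with 9.18, 8.59, 8.04 and 9.28, then Rgma, a guidance cue, at 0.12 and Lrrtm1, a synaptic adhesion gene, at 0.12. For Cxcr4 they were Tead2, a transcription factor of the Hippo pathway, at 0.25, with 11.19, 10.32, 9.24 and 9.47, then Sgo1, which guards chromatid cohesion in dividing cells, at 0.27 and Rassf4 at 0.30.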

How the data were processed

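RNA was extracted with Trizol and RNeasy columns, amplified as sense-strand cDNA (Ambion WT kit) and labelled with biotin, per the labels' protocols. Affymetrix Expression Console was used, per the submitters' processing notes, with its version, summarisation, scaling and build not given in the sources used here. In the table as deposited there is 1 log2 value per probe set and array. The log2 scale was inferred from the values, 2.43 to 14.57. Similar array medians were taken as prior scaling, which can remove a difference in total RNA between regions.

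Of 35556 probe sets, 21789 had 1 gene symbol in the array's 2016 annotation, 1621 had several and 12146 were unnamed here. By Entrez ID 21698 matched RefSeq GRCm38.p6, changing 0 symbols. Those naming several genes were left out, and 5 of 107 pathway list genes are unnamed here. For a gene with several probe sets the brightest gave its level. No test was made, each region having 1 array, and calls are by size alone. The rule was run on simulated levels with known shifts and normal noise at 0.17, the SD over background genes of 1 array minus the mean of the rest. Those genes lie below the floor and no spread between animals entered, so the run checks the working of the rule only.

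The members, the 7 pathway and 14 marker lists and the rules were chosen with earlier results of these data known. Besides the members, each list gave up to 4 names by the size of the gap if genes passed, and otherwise the 2 farthest from the mean of the other arrays, and the 3 genes most like each varying member were added. Other list genes were picked after their values were seen. A list's summed signal is the log2 of its members' summed linear signals. Alternatives were other level floors, quantile normalization, the mean of probe sets, comparison with the mean of the other arrays, and a size of 2 log2 units. Promoter windows came from RefSeq, matched by symbol. Python 3.11.15, NumPy 2.4.6, pandas 2.3.3 and Matplotlib 3.10.9 were used.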

Additional observations from a re-analysis of the deposited data

How the results depend on the processing

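The 1 member call for a single region (Cxcr4), the 7 member differences between pairs of regions and the 3 members ranging by at least 1 log2 unit were the same in number without the level floor, with it at the 75th percentile, and under quantile normalization or the mean of probe sets. The mean of probe sets could not change these counts, as each member had 1 probe set. Removing the floor could not either, as it adds only Cxcl12, with a range of 0.53. With a size of 2 log2 units, a stricter rule by construction, they were 0, 2 and 1. Against the mean of the other arrays, a looser rule by construction, 3 members were called: Cxcr4 and Reln as higher, and Dab1 as lower. The 4 pathway list genes called became 2 with a size of 2 log2 units and 9 against the mean of the other arrays, of which 4 were shared. With the 75th percentile floor or the mean of probe sets they were 3, without Syne2. Quantile normalization moved the range of a member by at most 0.075. Of 212 single values recomputed, 4 list medians moved by more than 0.17, the SD over background genes of 1 array minus the mean of the rest. They moved by at most 0.33, all with the 75th percentile floor. Among them, the median of the ligand side in the cerebellum went from 0.063 to -0.27. That of the Cdk5 list in the pontine nucleus went from 0.31 to -0.01. A reversal was counted only for values of at least 1 log2 unit in size. Few values were that large and ranges cannot reverse, so the count of 0 says little. The 212 include member values under the mean of probe sets, which could not change. List medians already use the mean of the other arrays, so that comparator was not run for them. No replicate could be left out, and no paired analysis was possible because each region has 1 array. Cxcl12, at 7.98 to 8.51, is limited by signal over background.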

Other observations

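Several migration genes that passed no rule for a single region still ranged by over 1 log2 unit. They are given as values, chosen after these were seen, together with Ncam1 and Nrg1, which ranged by 0.52 and 0.93. St8sia2, an enzyme that adds polysialic acid to the adhesion molecule Ncam1, read 11.17 in the cerebellum, 10.30 in the bulb and 12.16 in the pontine nucleus, with 11.66 in the superior colliculus, while St8sia4, a second such enzyme, read 9.99, 9.83, 9.97 and 10.93. The 2 enzymes thus peaked in different regions, and Ncam1 read 12.70, 12.69, 13.21 and 13.21. Erbb4, a neuregulin receptor, read 11.90, 11.33, 12.53 and 11.41, and its ligand gene Nrg1 read 9.86, 9.30, 10.23 and 9.38, both highest in the pontine nucleus and second in the cerebellum. Dcc, a netrin receptor, was highest in the cerebellum at 12.14 and lowest in the pontine nucleus at 11.01, and Ntn1, its ligand gene, was highest in the pontine nucleus at 9.67 and lowest in the superior colliculus at 8.61. Gja1, a gap junction gene of radial glia, read 10.38, 10.62, 9.50 and 9.01.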
